A study of Mus musculus with 18 samples.

Results

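The comparison set heterozygous mutant mouse embryonic fibroblasts that had received TGFb for 4 h against untreated fibroblasts of the same genotype. Its members were the 4 arrays so labelled, 2 per group, of 18 arrays in the whole series, and every gene with a usable probe set: 10078 genes of 34945 probe sets that carry a single gene symbol. The fibroblasts came from minced E12.5 to E14.5 fetuses without head, liver and blood clots, and were grown in medium with 10% serum. Cells of 3 genotypes (heterozygous, homozygous and wt) were left untreated or received 5 ng/mL TGF-b1, called TGFb in the labels, for 4 h or 24 h. By its title the series concerns a TGFBR1 point mutation, whereas the design text speaks of a TGFb1 mutant that is constitutively active, so the allele is called only the mutant. The groups compared were heterozygous cells with TGFb for 4 h and heterozygous cells without TGFb, for which the design text speaks of a vehicle but gives no duration. Both groups were heterozygous for the mutant, and serum was present in both unless it was withdrawn, which is not stated. Such cultures are mixed primary cells of a whole fetal carcass, and the labels do not say how many embryos or cultures the 2 arrays of a group represent. P-values therefore measure only the spread between arrays, which may be technical.

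Of the 12 fibroblast and mesenchyme markers listed, 11 lay above the dim level, a log2 intensity of 5, on all 4 arrays, and the exception was Pdgfra, under it on both TGFb arrays. In the limma test described below 6 of the 12 were lower after TGFb (50%, against 13.2% of all genes) and none was higher: Col1a1, Col3a1, Fn1, Pdgfra, Pdgfrb and Prrx1. Pdgfra, Pdgfrb and Prrx1 stayed called without any 1 of the 4 arrays, whereas Col1a1 had an adjusted p of 0.0545 to 0.122 without any 1 of the 4 arrays, Col3a1 an adjusted p of 0.0967 to 0.209 without any 1 of the 4 arrays, and Fn1 was not called without untreated array 1, TGFb array 1 or TGFb array 2, adjusted p = 0.115, 0.0682 and 0.0679. The summed linear intensity of the 12 was 214400 and 210710 after TGFb, against 256500 and 245850 in untreated cells. Macrophage markers were also present: 14 of 14 lay above the dim level on all 4 arrays, and their summed linear intensity was 19268 and 15407 after TGFb, against 16952 and 12858 in untreated cells. None of the 14 passed the test (log2 differences between -1.05 and 0.66). The defining erythroid markers were under the dim level throughout, with 0 of 5 above it, and of 9 endothelial markers only Emcn was above it. Of 10 epithelial markers 3 were above the dim level on all 4 arrays: Krt18, Krt19 and Epcam. None of these passed, and Epcam lay slightly below 0 (-0.12, adjusted p = 0.593). Cdh1, Cldn3, Esrp1, Krt14 and Krt5 were under it throughout. Krt8 was under it throughout on its brightest probe set. Its tested probe set read 5.19 and 4.44 after TGFb, against 3.86 and 3.11 untreated, and did not pass (1.33, adjusted p = 0.134). The summed epithelial intensity was 4075 and 3371 after TGFb, against 2189 and 1416 untreated, and Cldn4, under the dim level untreated, was at least 2.16-fold higher (adjusted p = 0.0133; not called without untreated array 1, untreated array 2 or TGFb array 2, adjusted p = 0.0629, 0.0654 and 0.12). Of 8 neural and glial markers 4 were above the dim level, with a sum of 2981 and 3215 after TGFb, against 1480 and 1655 untreated, and Nes, which encodes nestin, was higher (1.29 ± 0.17, adjusted p = 0.000189). Of 11 skeletal muscle markers 4 were above it, with a sum of 2438 and 2128 after TGFb, against 1497 and 1234 untreated, and Tnnt2 was called higher (1.38 ± 0.44, adjusted p = 0.0312; adjusted p of 0.0786 to 0.155 without any 1 of the 4 arrays), while Myod1, Myf5 and Myog were under the dim level throughout. These 3 sums did not overlap between the groups, but neither did 70.7% of all genes, so this marks little. Of the neural markers Stmn2 (0.66), Sox10 (0.34) and Tubb3 (0.15) did not pass. Nor did the muscle markers Des (0.64), Actc1 (0.02), Myh3 (-0.22) and Ttn (-0.81). Of 8 cartilage and bone markers 2 were above the dim level, with Sox9 called higher (1.25; not called without untreated array 1 or TGFb array 1, adjusted p = 0.0886 and 0.0721), and of 5 fat markers 2 were. In these bulk samples fewer cells of a type and less RNA per cell cannot be told apart.

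TGFb binds a type II receptor that recruits and phosphorylates the type I receptor TGFBR1, which in turn phosphorylates the transcription factors SMAD2 and SMAD3. These enter the nucleus with SMAD4 and act with partners such as AP-1 factors, while parallel branches run through MAP kinases. In fibroblasts the pathway is known for inducing matrix, contractile and growth factor genes, and for inducing inhibitors of its own signalling.

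After 4 h of TGFb 2904 of 10078 genes (28.8%) had a Benjamini-Hochberg adjusted p under 0.05 in limma, 1578 of them higher (15.7%) and 1326 lower (13.2%) than in untreated cells. Changes of over 2-fold among these numbered 307 higher (3.05% of all genes) and 292 lower (2.9%). Counts of list members below are to be read beside the 15.7% higher and 13.2% lower of all genes. Log2 intensities are the scale of every level below, differences are TGFb minus untreated in log2 units, and an error after ± is the standard error of the fit for 2 arrays against 2. The median difference over all genes was 0.02, and the replicate arrays varied by 0.222 (TGFb) and 0.183 (untreated) log2 units, as a root mean square standard deviation over genes. The 2 TGFb arrays both lay above or both below the 2 untreated arrays for 7128 genes (70.7%), so a lack of overlap by itself marked little. Of 255 called members of the gene lists below, 151 stayed called without any 1 of the 4 arrays and 104 lost the call without at least 1. The count of called genes was 1664 without untreated array 1, 1554 without untreated array 2 and 1825 without TGFb array 1. Fitted on the 12 mutant arrays alone, the model called 4599 genes.

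**Figure D1:**
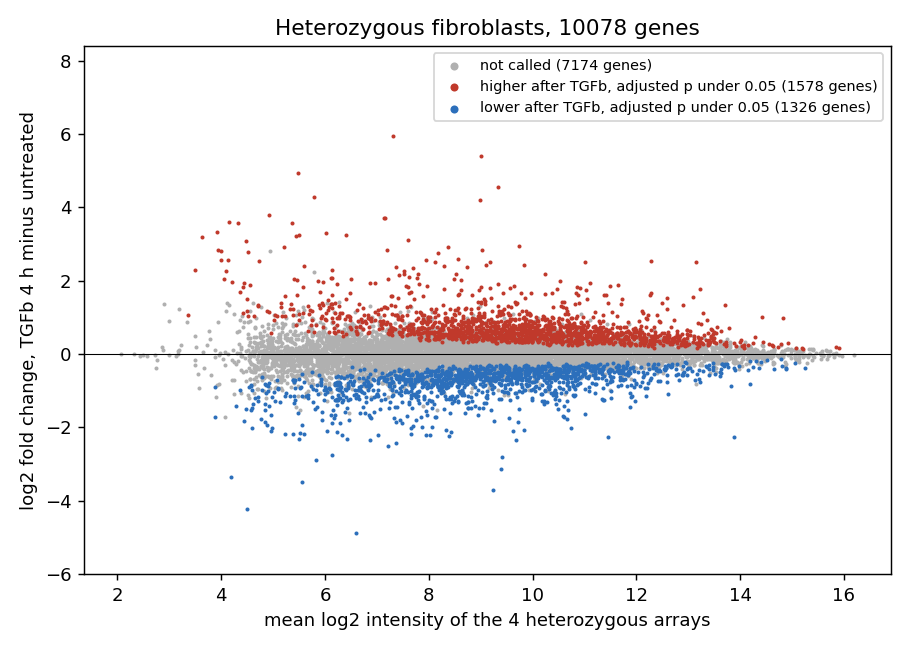
Each point is a gene, with the mean log2 intensity of the 4 heterozygous arrays on the horizontal axis and the log2 fold change, TGFb 4 h minus untreated, on the vertical axis. The 1578 called higher and 1326 called lower genes spread over the whole range of intensity above the dim level, and Lce1f is the highest point among genes measured above the dim level in both groups.

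The largest measured rises were in secreted growth factors and cytokines, in transcription factors, and in 3 genes of the epidermal differentiation complex. Lce1f, which encodes a late cornified envelope protein of skin, read 11.77 and 11.66 on the TGFb arrays, against 6.49 and 6.11 on the untreated arrays, a difference of 5.41 ± 0.20 (limma adjusted p = 1.25e-08). Lce1h of the same family read 9.63 and 10.10, against 6.88 and 7.67 untreated (2.59 ± 0.32, adjusted p = 0.000124). Crct1, another gene of that complex, read 9.33 and 8.97, against 6.25 and 5.83 untreated (3.11 ± 0.33, adjusted p = 4.25e-05). In all 3 genes the gap between the groups exceeded the distance between the arrays of either group. The summed epithelial markers given above also stood higher on both TGFb arrays. Keratins Krt18 (1.10, adjusted p = 0.154) and Krt19 (0.995, 0.115), and Epcam (-0.12, 0.593), lay above the dim level on all 4 arrays and did not pass. Krt5, Krt14 and Cdh1 were under it on all 4 arrays. The part of epithelial cells in these 3 rises was not tested. Aldh1a3, an enzyme that makes retinoic acid, read 11.35 and 10.83 after TGFb, against 7.17 and 6.63 in untreated cells (4.19 ± 0.64, adjusted p = 0.000564). Nppb, the precursor of a natriuretic peptide, read 9.12 and 8.90, against 5.40 and 5.20 untreated, just over the dim level (3.71 ± 0.39, adjusted p = 4.1e-05). Foxs1, a forkhead factor, read 9.94 and 9.74, against 6.94 and 6.89 untreated (2.92 ± 0.50, adjusted p = 0.00112). That no array of one group entered the range of the other was a condition for naming these genes. Meox1, a homeobox factor of the somite, rose by 2.41, Hivep3, a zinc finger protein, by 2.56, the lens connexin gene Gja3 by 2.76 and Nipal1, a magnesium transporter, by 2.44 log2 units.

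A further set of rises started from a signal under the dim level on both untreated arrays, so that only a lower bound on the fold is given. Sema7a, a membrane-anchored semaphorin, read 10.24 and 10.32 after TGFb, against 4.54 and 4.14 untreated, at least 38.8-fold higher (adjusted p = 4.31e-06). Serpinb2, an inhibitor of plasminogen activators, read 7.86 and 8.02, against 3.55 and 2.47 untreated, at least 7.66-fold higher (adjusted p = 7.15e-05). Olfm2, an olfactomedin family protein, read 7.89 and 7.42, against 4.50 and 4.23 untreated, at least 6.31-fold higher (adjusted p = 1.72e-05). These genes were dim on each untreated array and well over the dim level on each TGFb array. The other bounds were 4.43-fold for the ligand gene Wnt2, 4.33-fold for the chemokine gene Ccl17, 4.16-fold for the syntenin gene Sdcbp2, 3.49-fold for the growth factor gene Fgf18 and 3.18-fold for the potassium channel gene Kcnn4. Trem1 and Gpr84, receptors best known from myeloid cells, were at least 3.63-fold and 3.46-fold higher. The macrophage markers given above did not pass the test beside them, and their part in these 2 rises was not tested. Trem1 lost its call without TGFb array 1 (1.55, adjusted p = 0.0611).

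Promoters are shown for Il11, Lif, Il6 and Serpinb2, secreted-factor and inhibitor genes among the 30 largest rises whose promoters hold the AP-1 binding motif TGANTCA. Each runs from 250 bases before to 50 bases after the start, 5′ to 3′ on the gene's strand, from RefSeq on build GRCm38.p6, with the motif in capitals. The Il11 promoter, one of 2 listed, is chr7:4778092-4778391 on the minus strand, Lif is chr11:4257318-4257617, Il6 chr5:30012864-30013163 and Serpinb2, one of 2 listed, chr1:107511173-107511472, all 3 on the plus strand.
Il11: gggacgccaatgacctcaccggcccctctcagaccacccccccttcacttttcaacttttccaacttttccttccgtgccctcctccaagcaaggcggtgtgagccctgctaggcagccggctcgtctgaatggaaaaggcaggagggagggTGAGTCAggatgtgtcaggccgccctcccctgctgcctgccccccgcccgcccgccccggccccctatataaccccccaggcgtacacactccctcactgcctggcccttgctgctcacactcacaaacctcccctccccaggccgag
Lif: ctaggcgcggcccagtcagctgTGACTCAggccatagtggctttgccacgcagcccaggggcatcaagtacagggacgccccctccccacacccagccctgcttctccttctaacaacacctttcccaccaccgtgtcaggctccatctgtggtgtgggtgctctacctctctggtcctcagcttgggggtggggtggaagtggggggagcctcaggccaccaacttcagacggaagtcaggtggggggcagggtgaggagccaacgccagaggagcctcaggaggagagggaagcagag
Il6: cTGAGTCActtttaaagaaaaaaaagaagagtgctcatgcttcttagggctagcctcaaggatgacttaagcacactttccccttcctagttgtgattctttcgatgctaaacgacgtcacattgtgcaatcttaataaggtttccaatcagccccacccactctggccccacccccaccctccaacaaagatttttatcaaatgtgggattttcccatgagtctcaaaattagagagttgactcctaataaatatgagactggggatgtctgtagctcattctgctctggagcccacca
Serpinb2: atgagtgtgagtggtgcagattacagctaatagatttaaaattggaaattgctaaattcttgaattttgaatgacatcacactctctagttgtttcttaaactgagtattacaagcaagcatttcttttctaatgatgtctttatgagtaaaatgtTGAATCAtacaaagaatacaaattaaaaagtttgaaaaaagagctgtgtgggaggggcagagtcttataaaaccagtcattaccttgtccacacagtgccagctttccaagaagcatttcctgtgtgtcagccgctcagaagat
The motif begins 98 bases before the start in Il11, 228 in Lif, 249 in Il6 and 94 in Serpinb2. Searched on both strands, it was found in 5 of the 23 largest rises with a promoter in the table (21.7%; the remaining gene is Sdcbp2), in 0 of 19 of the largest falls, in 501 of 8242 tested genes with a promoter (6.08%) and in 7.81% of all 32851 promoters. The CRE motif TGACGTCA was in 2 of the 23 (8.7%), against 3.68% of tested genes. The Smad palindrome GTCTAGAC was in 0 of the 23 and in 0.315% of tested genes, and the short Smad motif CAGACA was in 8 of the 23 (34.8%), in 5 of the 19 falls (26.3%) and in 18.2% of tested genes. These counts describe letters in a window of 300 bases and not binding.

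**Figure D2:**
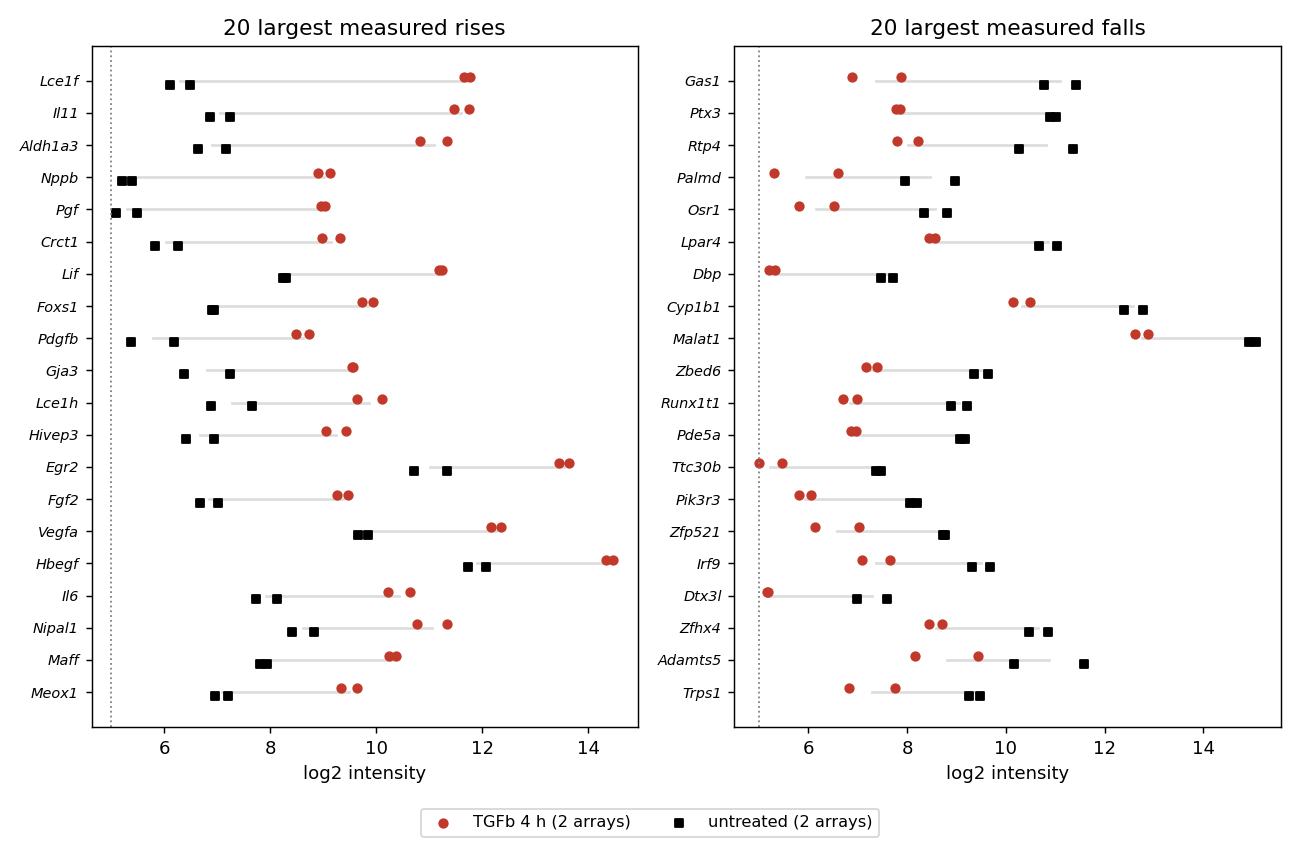
Log2 intensity of the 20 largest measured rises (left) and falls (right), with the 2 TGFb 4 h arrays as red circles, the 2 untreated arrays as black squares, a grey line between the group means and a dotted line at the dim level of 5. No circle of a gene lies between its squares, as the rule for naming these genes required, and the pairs lie closest to each other in Adamts5.

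Falls of like size were found in developmental regulators, in interferon response genes and in receptors. Gas1, a membrane co-receptor for Hedgehog ligands, read 7.87 and 6.88 after TGFb, against 11.41 and 10.78 in untreated cells (-3.72 ± 0.34, adjusted p = 1.58e-05). Ptx3, a secreted pentraxin of innate immunity, read 7.85 and 7.78, against 10.89 and 11.01 untreated (-3.13 ± 0.22, adjusted p = 3.01e-06). Osr1, a zinc finger factor of limb connective tissue, read 5.80 and 6.51, against 8.34 and 8.80 untreated (-2.42 ± 0.33, adjusted p = 0.000233). Each gap exceeded the distance between the arrays of either group. Lpar4, a lysophosphatidic acid receptor, read 8.44 and 8.57, against 10.66 and 11.03 untreated (-2.35 ± 0.16, adjusted p = 3.01e-06). Cyp1b1, a cytochrome P450 enzyme, read 10.49 and 10.15, against 12.78 and 12.39 untreated (-2.27 ± 0.17, adjusted p = 4.31e-06). Palmd, which encodes palmdelphin, fell by 2.50, the cyclic GMP phosphodiesterase Pde5a by 2.21, the kinase subunit Pik3r3 by 2.19 and the ciliary transport gene Ttc30b by 2.19 log2 units.

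Several of the 20 largest falls were transcriptional regulators: Runx1t1 (-2.22), Zbed6 (-2.22), Zfp521 (-2.18), Zfhx4 (-2.08) and Trps1 (-2.07). Each kept its call in every alternative fit. The circadian factor gene Dbp (-2.33) and the nuclear noncoding RNA Malat1 (-2.25) were called on probe sets named _s_at and _a_at, suffixes for probes that match several transcripts and, with _a_at, transcripts of the same gene. Without probe sets named _x_at, _s_at or _a_at they were at -1.07 (adjusted p = 0.141) and -0.27 (adjusted p = 0.103). All 7 Malat1 probe sets past the filter nevertheless lay below 0, and 5 of them were called lower. Adamts5, an aggrecan-cleaving protease, read 8.17 and 9.43, against 10.17 and 11.59 untreated (-2.08 ± 0.53, adjusted p = 0.0115). Its call was lost without untreated array 2 (-1.37, adjusted p = 0.132) and without TGFb array 1 (-1.44, adjusted p = 0.122). Dtx3l, a ubiquitin ligase, fell by 2.12 (adjusted p = 0.0308), and without any 1 of the 4 arrays its adjusted p was 0.0723 to 0.157.

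In the falls that ended under the dim level on both TGFb arrays the fold is again a lower bound. Rspo2, a secreted activator of Wnt signalling, read 3.55 and 4.75 after TGFb, against 8.67 and 9.40 untreated, at least 16.4-fold lower (adjusted p = 1.95e-05). Pdgfra, the receptor for PDGF-A and other PDGF ligands, read 4.41 and 4.38, against 7.49 and 7.06 untreated, at least 4.83-fold lower (adjusted p = 6.37e-05). Eya1, a transcriptional co-activator and phosphatase, read 3.93 and 4.66, against 6.48 and 6.47 untreated, at least 2.78-fold lower (adjusted p = 0.000842). No untreated array of these genes was dim. Pabpc4l, a poly(A) binding protein gene, was at least 5.69-fold lower, Scaper at least 4.23-fold, the mismatch repair gene Mlh3 at least 3-fold and Zc3h6 at least 2.88-fold lower. Lpin1, a phosphatidate phosphatase, was at least 3.18-fold lower (adjusted p = 0.0232), and its adjusted p without any 1 of the 4 arrays was 0.0568 to 0.133.

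Within the TGFb pathway itself, 2 of 12 measured genes of the ligand and latent binding protein list were higher and 2 lower, each 16.7%, which is near the 15.7% and 13.2% of all genes. Tgfb1, which encodes the ligand added, read 11.61 and 11.56 on the TGFb arrays, against 10.18 and 10.21 on the untreated arrays (1.39 ± 0.10, adjusted p = 3.54e-06). Inhba, the activin A subunit, read 14.03 and 14.19, against 12.26 and 12.42 untreated (1.77 ± 0.10, adjusted p = 6.12e-07). Inhbb, the activin B subunit, read 7.81 and 7.99, against 9.79 and 9.23 untreated (-1.61 ± 0.36, adjusted p = 0.0059; -1.33 and adjusted p = 0.0612 without untreated array 1). The 2 activin subunits thus moved in opposite directions. Bmp4, a BMP ligand, was at -0.70 ± 0.17 (adjusted p = 0.00789) and lost its call without untreated array 2 (-0.47, 0.0978) or TGFb array 1 (-0.45, 0.0909). The sister ligands Tgfb2 (0.03) and Tgfb3 (0.06) did not pass.

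Of 10 receptor genes 3 were higher and 3 lower (0 to 3 lower over the alternative settings). Bmpr1b, a type I BMP receptor, read 8.67 and 9.20, against 7.39 and 7.82 untreated (1.33 ± 0.22, adjusted p = 0.000912), and Acvr1, another type I receptor, differed by 0.52 ± 0.07 (adjusted p = 0.000281). Tgfbr2, the type II TGFb receptor, read 11.26 and 11.16, against 11.82 and 11.77 untreated (-0.58 ± 0.14, adjusted p = 0.00968). Without untreated array 1 it stood at -0.56 (adjusted p = 0.0587) and without TGFb array 2 at -0.54 (0.058). Tgfbr1, the type I TGFb receptor named in the series title, read 10.91 and 10.94, against 10.54 and 10.53 untreated (0.39 ± 0.10, adjusted p = 0.0106), on its brightest probe set. The mean of its probe sets gave -0.04 (adjusted p = 0.921), so its direction depends on the probe set. Tgfbr1 also missed the threshold without untreated array 1 (0.40, 0.0528), untreated array 2 (0.38, 0.063) or TGFb array 2 (0.38, 0.0512). Tgfbr3, the co-receptor betaglycan, read 5.81 and 6.83, against 7.69 and 7.92 untreated (-1.49 ± 0.44, adjusted p = 0.0227). Without untreated array 1, untreated array 2 or TGFb array 1 Tgfbr3 had an adjusted p of 0.0689, 0.117 and 0.199, at -1.60, -1.37 and -0.97 log2 units.

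Among the 5 Smads that carry the signal none was higher and 2 were lower (0 to 3 over the alternative settings). Smad3 read 9.16 and 9.22 after TGFb, against 9.59 and 9.54 untreated (-0.38 ± 0.11, adjusted p = 0.0231), and Smad4 read 12.42 and 12.55, against 12.82 and 12.79 untreated (-0.32 ± 0.10, adjusted p = 0.031). Both differences are small, and neither was called without any 1 of the 4 arrays, with adjusted p of 0.0586 to 0.11 for Smad3 and 0.0501 to 0.176 for Smad4. The mean of the Smad4 probe sets gave -0.07 (adjusted p = 0.475). Smad2 (0.10), Smad1 (0.03) and Smad5 (-0.14) did not pass.

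Of 20 inhibitors and feedback regulators 8 were higher (40%, against 15.7% of all genes) and 2 lower (10%, against 13.2%), with a median difference of 0.28. Ldlrad4, a membrane protein that limits Smad phosphorylation, read 8.62 and 8.69 on the TGFb arrays, against 7.41 and 7.43 on the untreated arrays (1.24 ± 0.20, adjusted p = 0.000695). Fstl3, a secreted activin antagonist, read 10.67 and 10.79, against 9.64 and 9.73 untreated (1.04 ± 0.14, adjusted p = 0.000217). Spsb1, a ubiquitin ligase adaptor for the type II receptor, read 11.58 and 11.78, against 10.49 and 10.83 untreated (1.02 ± 0.18, adjusted p = 0.00126). The other rises were in the BMP antagonist Nbl1 (1.05), the corepressor Tgif1 (0.78), the ubiquitin ligase Smurf1 (0.77) and Pmepa1 (0.51), a paralogue of Ldlrad4, and in Smurf2, not called without untreated array 1, untreated array 2 or TGFb array 2, adjusted p = 0.176, 0.088 and 0.235. Smad7, the inhibitory Smad of the TGFb branch, read 11.45 and 11.24, against 10.98 and 10.96 untreated, and did not pass on its brightest probe set (0.37 ± 0.21, adjusted p = 0.209). That probe set is named _x_at, for probes that may hybridize to other genes, and with probe sets of such names left out Smad7 was at 0.64 (adjusted p = 0.0011), and the mean of its probe sets gave 0.50 (0.00869). Skil, a corepressor, read 12.05 and 12.10, against 12.22 and 12.12 untreated, and did not pass (-0.09 ± 0.09, adjusted p = 0.463). The 2 falls were in Smad6 (-1.02; adjusted p of 0.0746 to 0.126 without any 1 of the 4 arrays), the inhibitory Smad of the BMP branch, and in the BMP antagonist Grem1. Grem1 read 10.06 and 9.73, against 11.63 and 10.99 untreated (-1.42 ± 0.38, adjusted p = 0.0147). Grem1 lost its call without untreated array 1 (-1.10, 0.123) or TGFb array 2 (-1.25, 0.0883).

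Of 30 listed target genes of TGFb and BMP signalling 13 were higher and 4 lower, with a median of 0.39. The lower ones included Nox4, at -0.59 without untreated array 1, and Cdkn2b, at -0.25 without TGFb array 2. Myc was among the higher ones, at 0.17 without TGFb array 2. Each of these genes lost its call in the fit named. Sphk1, a sphingosine kinase, read 11.30 and 11.38 after TGFb, against 8.95 and 9.34 untreated (2.20 ± 0.16, adjusted p = 3.29e-06). This probe set is named _a_at, for several transcripts of the same gene, and the other probe set of Sphk1 gave 0.70 (adjusted p = 0.609). Snai1, a repressor of epithelial genes, read 9.67 and 9.60, against 8.01 and 8.06 untreated (1.60 ± 0.32, adjusted p = 0.00279). Its relative Snai2 read 11.39 and 11.22, against 12.46 and 12.50 untreated (-1.18 ± 0.14, adjusted p = 8.06e-05). The 2 Snail family genes therefore moved in opposite directions, and Zeb2, a repressor of the same programme, was lower (-1.24 ± 0.22, adjusted p = 0.00148). Has2, the hyaluronan synthase, rose by 1.50, the EGF receptor inhibitor Errfi1 by 1.62, Bhlhe40 by 1.06, the protease inhibitor Timp1 by 1.01 and Klf10, a TGFb-inducible Krüppel-like factor, by 0.81. Ccn2, the connective tissue growth factor, read 15.76 and 15.78, against 15.67 and 15.69 untreated, and did not pass (0.09 ± 0.07, adjusted p = 0.352). That gap was only a little larger than its error. Id1, a BMP target, read 12.21 and 12.35, against 11.59 and 11.31 untreated (0.83 ± 0.34, adjusted p = 0.0862).

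Immediate early genes are those that cells switch on within the first hour of a stimulus, many of them encoding transcription factors. They were higher in 16 and lower in 2 of 29 cases at 4 h (median 0.87). Over the alternative settings 13 to 21 were higher. Egr2 read 13.64 and 13.46 on the TGFb arrays, against 11.34 and 10.71 on the untreated arrays (2.53 ± 0.31, adjusted p = 0.00012). Maff, a small Maf factor, read 10.25 and 10.37, against 7.81 and 7.94 untreated (2.43 ± 0.19, adjusted p = 5.29e-06). Junb, an AP-1 subunit, read 10.83 and 10.77, against 9.15 and 9.15 untreated (1.65 ± 0.16, adjusted p = 1.95e-05). The AP-1 genes did not move as a block, since Fosl1 rose by 1.66, while Fos read 9.03 and 9.51, against 9.75 and 9.82 untreated, and was called lower (-0.51 ± 0.15, adjusted p = 0.0246; not called without untreated array 1, untreated array 2 or TGFb array 1, adjusted p = 0.0763, 0.125 and 0.242). Jund (-0.36) was also called lower but not called without untreated array 1, untreated array 2 or TGFb array 2, adjusted p = 0.146, 0.117 and 0.261, and Jun (0.26), Fosl2 (-0.13) and Egr1 (0.09) did not pass. Arc, which encodes a synaptic capsid-like protein, read 4.33 and 6.84, against 2.25 and 2.25 untreated (at least 1.5-fold higher, adjusted p = 0.00221), and 1 TGFb array was under the dim level. Fosb read 4.74 and 5.70, against 2.02 and 2.03 untreated (at least 1.16-fold higher, adjusted p = 0.000384), with the same limit. Nr4a3, an orphan nuclear receptor, was dim on all 4 arrays, so no fold is given, while its relative Nr4a1 rose by 1.42.

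The Egr2 promoter, one of 5 listed, is chr10:67537316-67537615 on the plus strand and is shown because it holds a CArG box, the binding motif of serum response factor, in capitals and beginning 72 bases before the start.
Egr2: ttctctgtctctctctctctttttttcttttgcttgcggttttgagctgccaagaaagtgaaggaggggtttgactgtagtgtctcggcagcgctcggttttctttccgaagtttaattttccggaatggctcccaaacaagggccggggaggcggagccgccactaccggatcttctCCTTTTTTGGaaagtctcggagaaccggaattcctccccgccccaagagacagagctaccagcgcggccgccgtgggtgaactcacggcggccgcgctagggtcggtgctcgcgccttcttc
A CArG box, searched on both strands, was found in 2 of the 13 risen immediate early genes with a promoter (15.4%; Egr2 and Zfp36), in 139 of 8242 tested genes (1.69%) and in 1.63% of all promoters. Srf, the gene of that factor, read 10.26 and 10.48 after TGFb, against 9.09 and 8.91 untreated (1.37 ± 0.14, adjusted p = 2.74e-05).

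Negative regulators of MAP kinases rose in 7 of 16 cases (43.75%, against 15.7% of all genes) and fell in 1 (6.25%, against 13.2%), with a median of 0.48. Dusp4, a nuclear phosphatase of ERK, read 11.83 and 11.73, against 9.97 and 9.92 untreated (1.83 ± 0.17, adjusted p = 1.58e-05). Dusp5, a further ERK phosphatase, read 11.63 and 12.02, against 9.94 and 10.09 untreated (1.81 ± 0.12, adjusted p = 2.82e-06). Dusp10, which acts on JNK and p38, read 8.16 and 8.87, against 6.78 and 6.57 untreated (1.84 ± 0.25, adjusted p = 0.000217). Rises of 1.18 for Dusp14 and 1.12 for Dusp6 were also called. Spry1, a Sprouty inhibitor of receptor signalling, was the member that fell, at 8.11 and 8.13 after TGFb, against 9.66 and 9.88 untreated (-1.65 ± 0.17, adjusted p = 3.88e-05).

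Cytokines that signal through the shared receptor gp130 rose while their receptors fell, with 6 of the 12 measured genes of that list higher and 4 lower. Il11 read 11.75 and 11.47 after TGFb, against 6.86 and 7.24 untreated (4.56 ± 0.28, a 23.6-fold difference, adjusted p = 1.05e-06). Lif read 11.23 and 11.19, against 8.30 and 8.25 untreated (2.94 ± 0.19, adjusted p = 2.43e-06). Il6 read 10.64 and 10.22, against 8.14 and 7.72 untreated (2.50 ± 0.60, adjusted p = 0.00815). The gap was wide in each, but the fitted error of Il6 is larger, and its call was lost without untreated array 2 (2.29, 0.0614) or TGFb array 1 (2.29, 0.0575). Clcf1, another ligand of the family, rose by 1.75, and the feedback gene Socs2 by 1.68. Cish, of the same family as Socs2, was called higher as well (1.20; adjusted p of 0.0579 to 0.091 without any 1 of the 4 arrays), while Socs3 (-0.61) did not pass. On the receptor side Lifr read 6.03 and 5.99, against 7.62 and 7.81 untreated (-1.71 ± 0.22, adjusted p = 0.000163). Il6st, which encodes gp130 itself, read 10.13 and 10.31, against 11.25 and 11.44 untreated (-1.12 ± 0.23, adjusted p = 0.00327). Osmr read 10.65 and 10.69, against 11.64 and 11.82 untreated (-1.06 ± 0.19, adjusted p = 0.00181). All 3 receptor chains were therefore called lower. The transcription factor gene Stat3, also called lower (-0.40), had an adjusted p of 0.0798 to 0.13 without any 1 of the 4 arrays.

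Growth factor ligands and receptor tyrosine kinases also moved in opposite directions on balance. Of 25 growth factor ligand genes 11 were higher and 1 lower (median 0.27). Vegfa, the main angiogenic factor, read 12.17 and 12.36 on the TGFb arrays, against 9.85 and 9.65 on the untreated arrays (2.52 ± 0.13, adjusted p = 2.59e-07). Hbegf, an EGF receptor ligand, read 14.47 and 14.34, against 11.74 and 12.07 untreated (2.50 ± 0.11, adjusted p = 6.52e-08). Fgf2 read 9.27 and 9.48, against 6.68 and 7.02 untreated (2.52 ± 0.19, adjusted p = 4.31e-06). These 3 differed by more than 5-fold with small errors. Pgf, placental growth factor, read 9.03 and 8.96, against 5.10 and 5.49 untreated (3.70 ± 0.39, adjusted p = 3.88e-05). Pdgfb read 8.74 and 8.50, against 6.19 and 5.38 untreated (2.83 ± 0.54, adjusted p = 0.00222). Ereg rose by 1.99, Pdgfa by 0.79 and Pdgfc by 0.64, and Fgf21 was at least 2.04-fold higher. Kitl, the stem cell factor, was the gene called lower (-0.86; not called without untreated array 1, untreated array 2 or TGFb array 1, adjusted p = 0.0749, 0.122 and 0.234).

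Of 22 receptor tyrosine kinase genes 2 were higher and 10 lower, with a median of -0.42 (8 to 11 lower over the alternative settings). Beside Pdgfra, the ephrin receptor Epha7 read 6.19 and 6.68 after TGFb, against 7.96 and 8.61 untreated (-1.85 ± 0.27, adjusted p = 0.000423). Ephb3 read 5.87 and 5.86, against 7.59 and 7.33 untreated (-1.59 ± 0.17, adjusted p = 4.51e-05). Fgfr2 read 7.10 and 7.26, against 8.59 and 8.85 untreated (-1.54 ± 0.23, adjusted p = 0.000499). The ephrin receptor gene Epha3 (-1.22), the collagen receptor gene Ddr2 (-0.89), the insulin receptor gene Insr (-0.66) and Pdgfrb (-0.56) were also lower. Ror1, a Wnt5a receptor, fell by 1.35 (adjusted p = 0.0138), and its adjusted p without any 1 of the 4 arrays was 0.0556 to 0.0789. The 2 genes called higher were the VEGF receptor gene Flt1 (0.90; not called without untreated array 1 or TGFb array 2, adjusted p = 0.14 and 0.0846) and Fgfr1 (0.59; not called without untreated array 1 or TGFb array 1, adjusted p = 0.0504 and 0.0578).

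Chemokines and inflammatory mediators were higher in 9 and lower in 3 of 27 cases (median 0.24). Tnfaip6, a hyaluronan binding protein induced in inflammation, read 10.50 and 9.33, against 7.76 and 7.33 untreated (2.37 ± 0.34, adjusted p = 0.000369). Ccl20, a chemokine, read 10.29 and 10.30, against 8.61 and 8.15 untreated (1.91 ± 0.27, adjusted p = 0.000369). Vcam1, an adhesion molecule for leukocytes, read 9.79 and 9.69, against 11.50 and 11.43 untreated (-1.72 ± 0.28, adjusted p = 0.000912). The rises and falls thus split within the list. The NF-kB inhibitor gene Tnfaip3 (1.42), Cxcl14 (1.06) and the prostaglandin synthase gene Ptgs2 (0.97) rose. Ccl2 (0.08), Ccl7 (-0.21) and Cxcl12 (-0.41) did not pass.

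Interferon response genes were lower in 11 of 23 cases and higher in none, with a median of -1.07 against 0.02 for all genes (6 to 15 lower over the alternative settings). Irgm2, an interferon-inducible GTPase, read 3.71 and 3.93 on the TGFb arrays, against 7.70 and 6.90 on the untreated arrays, at least 4.93-fold lower (adjusted p = 0.00215). Ifit1, an antiviral RNA binding protein, read 2.16 and 2.63, against 7.63 and 5.60 untreated, at least 3.05-fold lower (adjusted p = 0.00274). Irf9, the DNA binding subunit of the type I interferon complex, read 7.09 and 7.66, against 9.68 and 9.31 untreated (-2.12 ± 0.39, adjusted p = 0.00195). The untreated arrays of Ifit1 were far apart, and those of Irf9 were close. Stat2, the partner of Irf9, read 3.66 and 5.03, against 6.69 and 6.62 untreated (-2.32 ± 0.47, adjusted p = 0.00327), with 1 TGFb array under the dim level. Rtp4, an interferon-induced chaperone, read 7.80 and 8.22, against 11.35 and 10.26 untreated (-2.80 ± 0.83, adjusted p = 0.0236). Rtp4 lost its call without untreated array 1 (-2.25, 0.151), TGFb array 1 (-2.59, 0.114) or TGFb array 2 (-3.01, 0.0658). The other called members included Ifit2 (-1.88), the transcription factor gene Irf1 (-1.29) and Trim25 (-1.26). Tap1 (-1.41), a peptide transporter subunit, was not called without untreated array 1, TGFb array 1 or TGFb array 2, adjusted p = 0.118, 0.0562 and 0.0616. Eif2ak2 (-0.56), the RNA-activated kinase PKR, was not called without untreated array 1, TGFb array 1 or TGFb array 2, adjusted p = 0.172, 0.14 and 0.0555. Igtp, a GTPase, was at least 2.49-fold lower and was not called without untreated array 1 (-1.90, 0.122), untreated array 2 (-2.46, 0.0569) or TGFb array 1 (-1.78, 0.138). Psmb8 (0.67), Bst2 (0.52) and Oas1a (0.42) lay above 0 and did not pass. The summed macrophage markers overlapped between the groups at 19268 and 15407 after TGFb, against 16952 and 12858 untreated, and their part in these falls was not tested.

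Promoters of Ifit1 (chr19:34640639-34640938) and Irgm2 (chr11:58214727-58215026), both on the plus strand of GRCm38.p6, are shown because they hold the core of the interferon-stimulated response element, searched as GAAA, any 2 bases and GAAA again. Capitals mark it, read on the opposite strand in Ifit1, where the 2 copies begin 104 and 85 bases before the start, and 64 bases before it in Irgm2.
Ifit1: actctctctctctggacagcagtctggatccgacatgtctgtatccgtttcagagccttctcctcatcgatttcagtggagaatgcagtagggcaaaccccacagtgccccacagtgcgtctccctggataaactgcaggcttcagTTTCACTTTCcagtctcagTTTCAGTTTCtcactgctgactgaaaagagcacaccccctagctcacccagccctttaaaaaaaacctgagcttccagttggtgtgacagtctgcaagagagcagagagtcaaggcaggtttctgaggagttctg
Irgm2: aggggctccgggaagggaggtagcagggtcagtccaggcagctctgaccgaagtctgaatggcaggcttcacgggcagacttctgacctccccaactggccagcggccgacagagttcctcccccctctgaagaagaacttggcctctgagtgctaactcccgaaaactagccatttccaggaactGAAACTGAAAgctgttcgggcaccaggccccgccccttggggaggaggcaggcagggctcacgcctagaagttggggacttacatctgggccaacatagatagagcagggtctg
On either strand the core was found in 5 of the 10 fallen interferon genes with a promoter (50%), namely Eif2ak2, Ifit1, Igtp, Irgm2 and Stat2. It was in 297 of 8242 tested genes (3.6%) and in 3.44% of all promoters. Members of the interferon list that were not called were not counted apart, so the 50% does not bear on the fall.

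Genes of retinoic acid metabolism and reception were higher in 4 and lower in 4 of 14 cases, each 28.6%, against 15.7% and 13.2% of all genes. Beside the rise of Aldh1a3, Rarb, a retinoic acid receptor that is itself a retinoic acid target, read 2.42 and 2.62 after TGFb, against 6.04 and 5.68 untreated, at least 1.81-fold lower (adjusted p = 4.31e-06). Dhrs3, a retinaldehyde reductase, read 8.25 and 8.23, against 9.64 and 9.79 untreated (-1.48 ± 0.19, adjusted p = 0.000198). Both arrays of Rarb were dim after TGFb and neither was before. The receptor gene Rarg fell by 0.69. Aldh1a2, another retinaldehyde dehydrogenase, was called higher (0.77), with an adjusted p of 0.104 to 0.16 without any 1 of the 4 arrays. The binding protein gene Crabp1 (0.78, adjusted p = 0.0154) and the degrading enzyme gene Cyp26b1 (-0.94, adjusted p = 0.0136) were called, but not without untreated array 2 (0.0502 for Crabp1 and 0.088 for Cyp26b1) or TGFb array 1 (0.0963 and 0.124). Crabp1 also missed the threshold without untreated array 1 (0.0952).

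In the Wnt list 5 of 25 genes were higher and 8 lower, and the members divided by role: all 5 were ligands or a nuclear factor, and the 8 were R-spondins and receptors. Wnt11, a ligand, read 8.75 and 9.01, against 6.52 and 6.88 untreated (2.18 ± 0.25, adjusted p = 6.49e-05), and Wnt2 was described above. Wnt9a (0.59) was higher, the nuclear factor gene Lef1 (0.68) was called higher but not called without untreated array 1, untreated array 2 or TGFb array 2, adjusted p = 0.0986, 0.105 and 0.164, and Wnt5b was at least 2.04-fold higher (adjusted p = 0.0261), with an adjusted p of 0.0706 to 0.137 without any 1 of the 4 arrays. Lgr4, a receptor for R-spondins, read 8.78 and 8.80, against 10.58 and 10.69 untreated (-1.84 ± 0.19, adjusted p = 3.37e-05). The Frizzled receptor Fzd1 read 9.64 and 9.52, against 10.91 and 10.79 untreated (-1.27 ± 0.16, adjusted p = 0.000161). Fzd4 (-1.26), Fzd7 (-0.85) and Fzd2 (-0.82) were lower with them. Fzd8 (-1.02; not called without untreated array 2 or TGFb array 1, adjusted p = 0.064 and 0.0812) and Rspo3 (-0.96; not called without untreated array 2 or TGFb array 1, adjusted p = 0.184 and 0.165) were called lower as well.

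The Hedgehog pathway genes all lay below 0, and 4 of 8 were called lower. After Gas1, the largest fall was in Gli2, the main transcriptional activator of the pathway, which read 7.22 and 6.90 on the TGFb arrays, against 9.20 and 8.90 on the untreated arrays (-1.99 ± 0.22, adjusted p = 5.72e-05). Ptch1, the receptor and a target of the pathway, read 7.67 and 8.28, against 9.15 and 9.06 untreated (-1.13 ± 0.21, adjusted p = 0.00162). Smo, the signalling membrane protein, differed by -0.35 ± 0.10 (adjusted p = 0.0203) and was not called without untreated array 2 (-0.24, 0.185) or TGFb array 1 (-0.30, 0.111). The other co-receptor genes Cdon (-0.64) and Boc (-0.45) did not pass. Among 11 Notch pathway genes 3 were higher and 3 lower, each 27.3%, against 15.7% and 13.2% of all genes. The lower ones were the receptor genes Notch2 (-1.28) and Notch3 (-0.97) and the nuclear factor gene Rbpj (-0.70). Hes1, a Notch target, rose by 0.65, and Lfng and the ligand gene Jag1 (0.75) were also called higher. Jag1 had an adjusted p of 0.071 to 0.187 without any 1 of the 4 arrays. Notch2 was not called without untreated array 1 (0.0558), nor was Notch3 without untreated array 2 (0.0828) or TGFb array 1 (0.0522), and Lfng missed the threshold in the same 2 fits as Notch3 (0.0562 and 0.0528).

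Transcription factors that pattern limb and mesenchyme were lower in 16 of 37 cases and higher in 6 (median -0.26; 13 to 17 lower over the alternative settings). Foxd1, a forkhead factor of stromal progenitors, read 9.92 and 9.57, against 11.45 and 11.41 untreated (-1.69 ± 0.14, adjusted p = 5.7e-06). Prrx1, a homeobox factor of limb mesenchyme, read 11.51 and 11.72, against 12.86 and 12.68 untreated (-1.15 ± 0.11, adjusted p = 1.98e-05). Further falls were in Meis2 (-1.48), Eya4 (-1.34), Shox2 (-1.22), Foxc1 (-1.21), Meis1 (-0.82), Tbx15 (-0.66) and Twist1 (-0.58). Beside Foxs1 and Meox1, Sox9 (1.25), the regulator of cartilage fate, was called higher but not called without untreated array 1 or TGFb array 1, adjusted p = 0.0886 and 0.0721. Hox genes were higher in 2 and lower in 5 of 24 cases (median -0.43; 1 to 11 lower over the alternative settings). Hoxb2 read 9.59 and 9.54, against 8.55 and 8.55 untreated (1.02 ± 0.17, adjusted p = 0.00107), whereas Hoxd13, a factor of the distal limb, read 7.48 and 7.52, against 8.26 and 8.58 untreated (-0.92 ± 0.20, adjusted p = 0.005; -0.76 and adjusted p = 0.0579 without untreated array 2).

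Of 23 collagen chains 1 was higher and 4 lower (1 to 10 lower over the alternative settings), or 4.35% and 17.4%, against 15.7% and 13.2% of all genes. Col1a1 read 15.03 and 15.09 on the TGFb arrays, against 15.49 and 15.39 on the untreated arrays (-0.38 ± 0.11, adjusted p = 0.0205). With 1 of the 4 arrays left out it was at -0.33 to -0.43 and was called in none of these fits. Col12a1, a fibril-associated collagen, read 12.85 and 12.84, against 13.57 and 13.65 untreated (-0.76 ± 0.18, adjusted p = 0.00665). Among 20 collagen processing genes 1 was higher and 1 lower, and Lox (-0.05), the lysyl oxidase, did not pass. Of 43 matrix glycoprotein, elastic fibre and proteoglycan genes 2 were higher, Has2 and the proteoglycan gene Cspg4 (0.77), and 6 lower, among them Ccn5 (-1.01). The 6 were 2 without untreated array 2 or TGFb array 1, 3 without untreated array 1 and 11 on the 12 mutant arrays alone. Fn1, which encodes fibronectin, was called lower (-0.23; not called without untreated array 1, TGFb array 1 or TGFb array 2, adjusted p = 0.115, 0.0682 and 0.0679). Eln (-0.04), Postn (-0.25) and Tnc (0.14) did not pass.

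Of 14 integrin subunits 2 were higher and 2 lower, each 14.3%, which is near the 15.7% and 13.2% of all genes. Itga5, the fibronectin receptor subunit, read 12.49 and 12.68, against 10.77 and 10.63 untreated (1.88 ± 0.14, adjusted p = 4.31e-06). Itgb3 read 8.20 and 8.28, against 6.18 and 6.20 untreated (2.05 ± 0.25, adjusted p = 0.000124). Itgb8, a subunit known for activating latent TGFb, read 4.21 and 3.72, against 5.75 and 6.20 untreated, at least 1.97-fold lower (adjusted p = 0.000433). Itga4 fell by 0.98, so the 4 called subunits split evenly by direction.

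Of 38 contractile and SRF target genes 9 were higher and 2 lower (median 0.09; 4 to 13 higher over the alternative settings). Smtn, smoothelin, read 10.32 and 10.45, against 9.07 and 9.33 untreated (1.19 ± 0.15, adjusted p = 0.000127), and Ankrd1, a stretch-responsive nuclear protein, read 13.54 and 13.79, against 12.91 and 12.78 untreated (0.82 ± 0.12, adjusted p = 0.00035). Acta2, smooth muscle actin, read 15.44 and 15.34, against 15.49 and 15.42 untreated, and did not pass (-0.07 ± 0.08, adjusted p = 0.545). The cytoskeletal adaptor genes Tes (0.62) and Csrp1 (0.58) were higher. Among 31 matrix protease and inhibitor genes 6 were higher (19.4%) and 2 lower (6.45%), beside 15.7% and 13.2% of all genes. Plaur, the urokinase receptor, read 12.28 and 12.55, against 10.50 and 10.61 untreated (1.86 ± 0.20, adjusted p = 3.88e-05). Timp3, a metalloprotease inhibitor, read 13.38 and 13.35, against 12.10 and 11.56 untreated (1.54 ± 0.20, adjusted p = 0.000199). Both falls were in ADAMTS proteases, Adamts5 and Adamts1 (-1.50). Adamts1 was not called without untreated array 2 or TGFb array 1, adjusted p = 0.0566 and 0.0567.

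In the G1/S and DNA replication list 3 of 36 genes were higher (8.33%) and 6 lower (16.7%), beside 15.7% and 13.2% of all genes (0 to 3 higher and 1 to 9 lower over the alternative settings). None of 29 mitosis genes was higher (0%) and 5 were lower (17.2%; 2 to 10 over the alternative settings). The proliferation marker Mki67 read 10.39 and 10.46 after TGFb, against 11.34 and 11.21 untreated (-0.85 ± 0.18, adjusted p = 0.00342). Cdk1 (0.24), Plk1 (0.30) and Aurka (0.40) did not pass. Of 20 CDK inhibitor and p53 target genes 6 were higher and 4 lower. Btg2, an antiproliferative p53 target, read 12.06 and 12.32, against 10.60 and 10.55 untreated (1.61 ± 0.16, adjusted p = 2.99e-05). Trp53inp1, another p53 target, read 10.57 and 10.90, against 12.03 and 11.98 untreated (-1.26 ± 0.12, adjusted p = 2.69e-05), and the stress protein gene Sesn1 fell by 1.48. The CDK inhibitor genes Cdkn1a (0.16) and Cdkn1b (0.11) did not pass.

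In the glycolysis and hypoxia list 5 of 20 were higher (25%) and 2 lower (10%), beside 15.7% and 13.2% of all genes. The glucose transporter gene Slc2a1 read 12.91 and 12.91 on the TGFb arrays, against 12.06 and 11.99 on the untreated arrays (0.89 ± 0.10, adjusted p = 5.64e-05). The lactate transporter gene Slc16a3 rose by 1.25, while Pgk1 (0.12) and Ldha (0.18), enzymes of glycolysis, did not pass. Hmox1, heme oxygenase 1, read 11.14 and 11.62, against 10.35 and 10.33 untreated (1.04 ± 0.16, adjusted p = 0.000536). Of 24 antioxidant genes 4 were higher (16.7%, near the 15.7% of all genes) and 1 lower (4.17%, against 13.2%). The lower one was Nfe2l2 (-0.69), the regulator of that programme. Of 25 ATF4 and unfolded protein response genes 2 were higher and 2 lower, each 8%, with falls of Sesn2 (-1.46) and Trib3 (-0.99). Of 20 cholesterol genes 1 was higher (5%) and none lower, and of 15 adipogenic genes 1 was higher (6.67%) and 2 lower (13.3%).

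**Figure D3:**
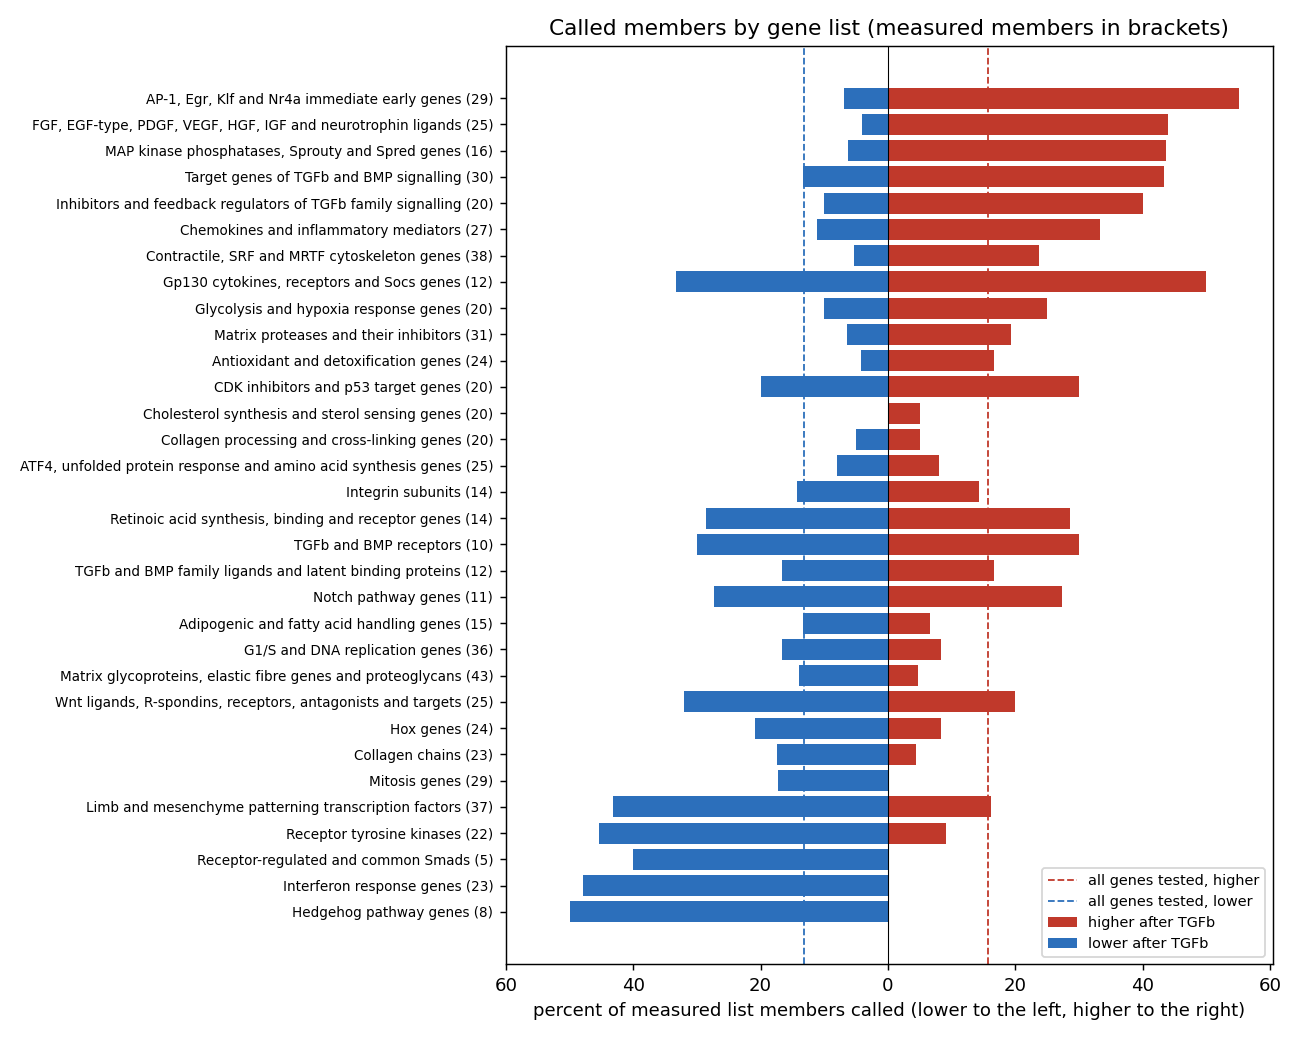
For each gene list, bars give the percentage of its measured members (number in brackets) that were called higher (red, right) or lower (blue, left) after 4 h of TGFb, and dashed lines give the percentage over all genes tested, 15.7% higher and 13.2% lower. Immediate early genes stand out to the right, with 16 of 29 higher, and interferon response and Hedgehog genes to the left, with 11 of 23 and 4 of 8 lower.

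Whether the heterozygous response differed from that of the other genotypes was tested as a difference of differences, in which no array is shared. Against wt cells the difference passed for 0 of 10078 genes (0%) in limma, with 347 genes (3.44%) at an unadjusted p under 0.05 and a smallest adjusted p of 0.9999. Against homozygous cells it also passed for 0 genes (0%), with 157 (1.56%) at an unadjusted p under 0.05. Other settings gave 0 to 47 genes for wt and 0 to 3 for homozygous cells. The 47 arose without wt TGFb 4 h array 1, and 4 without untreated wt array 1 or with no intensity filter. A miss does not show that the responses were alike, as the median standard error of such a difference was 0.22 log2 units. In simulated data the test against wt found 20.9% of 1.5-fold, 46.3% of 2-fold and 89.4% of 4-fold differences. The simulation gave every array of a gene the same spread, although wt arrays varied more than heterozygous ones. It also changed few genes, so these shares may not hold for the real arrays.

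Of the 599 genes called and over 2-fold changed in heterozygous cells, 598 lay on the same side of 0 in homozygous and 593 in wt cells. Called in the same direction were 559 in homozygous and 472 in wt cells, and none was called in the opposite direction in either. The largest changes stood side by side: the difference of Lce1f was 5.41 in heterozygous, 5.60 in homozygous and 5.18 in wt cells, and that of Gas1 -3.72, -3.67 and -3.23 in the same order. For the interferon list the medians were -1.07 in heterozygous, -1.30 in homozygous and -0.78 in wt cells, and for immediate early genes 0.87, 0.74 and 0.91.

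Since none passed, the 5 genes of smallest unadjusted p in each test are given only as a description. Against wt these were Dusp14 (0.78 ± 0.16, heterozygous minus wt response, unadjusted p = 0.000255), Tifa (1.74 ± 0.39, 6e-04), Iqsec1 (-1.11 ± 0.26, 0.00105), Skil (-0.53 ± 0.13, 0.00122) and Apbb1ip (1.10 ± 0.27, 0.00138). Skil, the Smad corepressor, differed by -0.09 in heterozygous and by 0.43 in wt cells. Iqsec1, an exchange factor for ARF GTPases, fell by 1.12 in heterozygous cells and stood at -0.01 in wt cells. Against homozygous cells they were Dclre1a (1.31 ± 0.26, 0.000216), Zfp608 (1.28 ± 0.29, 0.000756), Kbtbd4 (-0.75 ± 0.18, 0.00102), Rab11fip3 (0.84 ± 0.21, 0.00161) and Rin1 (0.56 ± 0.17, 0.00489). Tifa was under the dim level on both heterozygous TGFb arrays and Zfp608 on 1 of them, so their sizes are uncertain. Replicate arrays of wt cells varied more, by 0.387 (TGFb 4 h) and 0.379 (untreated) log2 units, than the heterozygous pairs.

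**Figure D4:**
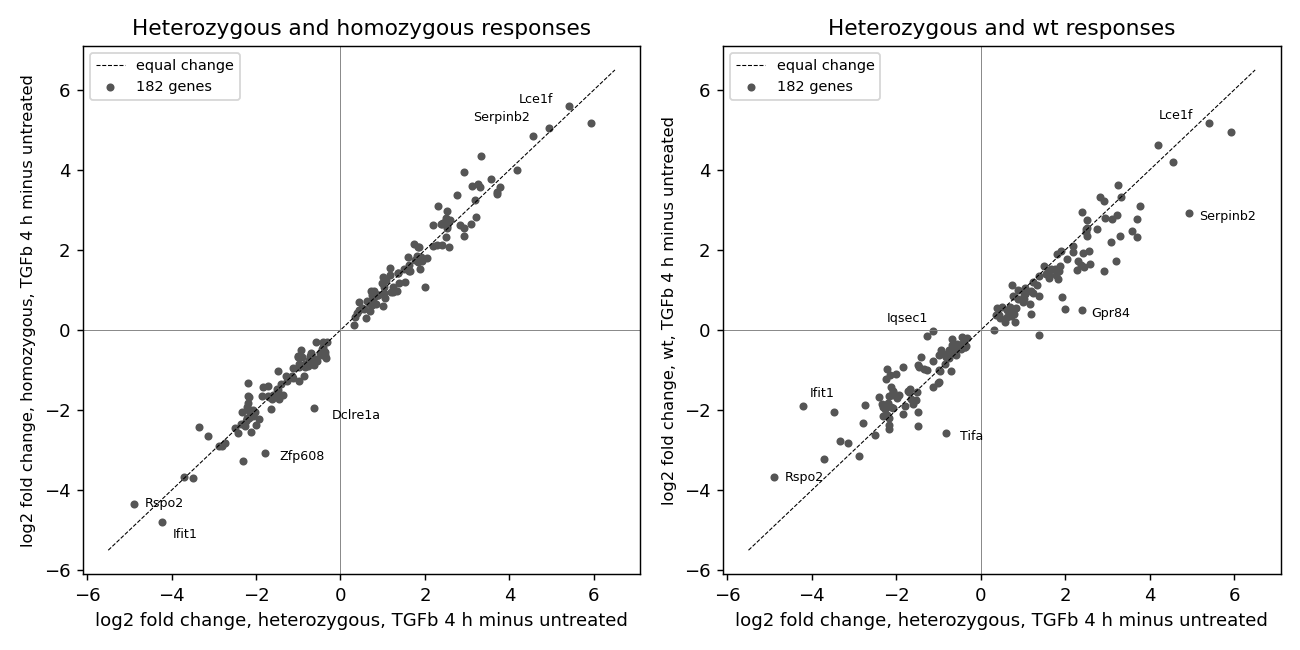
Each of 182 named genes called in heterozygous cells is placed by its log2 fold change in heterozygous cells (horizontal) and in homozygous (left) or wt cells (right), TGFb 4 h minus untreated, with a dashed line of equal change. Points lie near the line in both panels and more loosely against wt, where Serpinb2 is at 4.93 in heterozygous and 2.94 in wt cells. Serpinb2 and several other labelled genes are dim on some arrays, so that their place is uncertain.

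The levels at 24 h in the same genotype are given as a description, with no test, since they share the untreated arrays. Genes that had risen took different courses. Nppb read 5.40 and 5.20 untreated, 9.12 and 8.90 at 4 h and 5.22 and 5.06 at 24 h, and Crct1 read 6.25 and 5.83, 9.33 and 8.97 and 5.59 and 5.92 in the same order. Maff read 7.81 and 7.94 untreated, 10.25 and 10.37 at 4 h and 7.88 and 7.97 at 24 h. At 24 h these 3 genes stood at or near the level of untreated cells. Il11, with 9.28 and 9.40 at 24 h, Vegfa, with 11.33 and 11.18, and Aldh1a3, with 10.16 and 9.15, lay between the untreated and the 4 h arrays. Olfm2 read 4.50 and 4.23 untreated, 7.89 and 7.42 at 4 h and 8.19 and 7.91 at 24 h, and Fgf21 read 3.09 and 2.80, 6.73 and 5.32 and 8.27 and 7.47, so neither was lower at 24 h than at 4 h.

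Among the falls, Gas1 read 11.41 and 10.78 untreated, 7.87 and 6.88 at 4 h and 10.28 and 9.56 at 24 h, and Gli2 read 9.20 and 8.90, 7.22 and 6.90 and 8.36 and 8.63. Both were partly back at 24 h. Rspo2 read 8.67 and 9.40 untreated, 3.55 and 4.75 at 4 h and 3.40 and 4.79 at 24 h, and Ptx3 read 10.89 and 11.01, 7.85 and 7.78 and 7.02 and 7.05, so both stayed low. Rarb read 6.04 and 5.68 untreated, 2.42 and 2.62 at 4 h and 7.77 and 7.72 at 24 h, under the untreated arrays at the first time and over them at the second. Pabpc4l (7.68 and 7.34 untreated, 4.66 and 4.87 at 4 h, 7.25 and 6.90 at 24 h) and Dbp (7.47 and 7.71, 5.21 and 5.32, 7.47 and 8.33) were near the untreated level at 24 h.

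**Figure D5:**
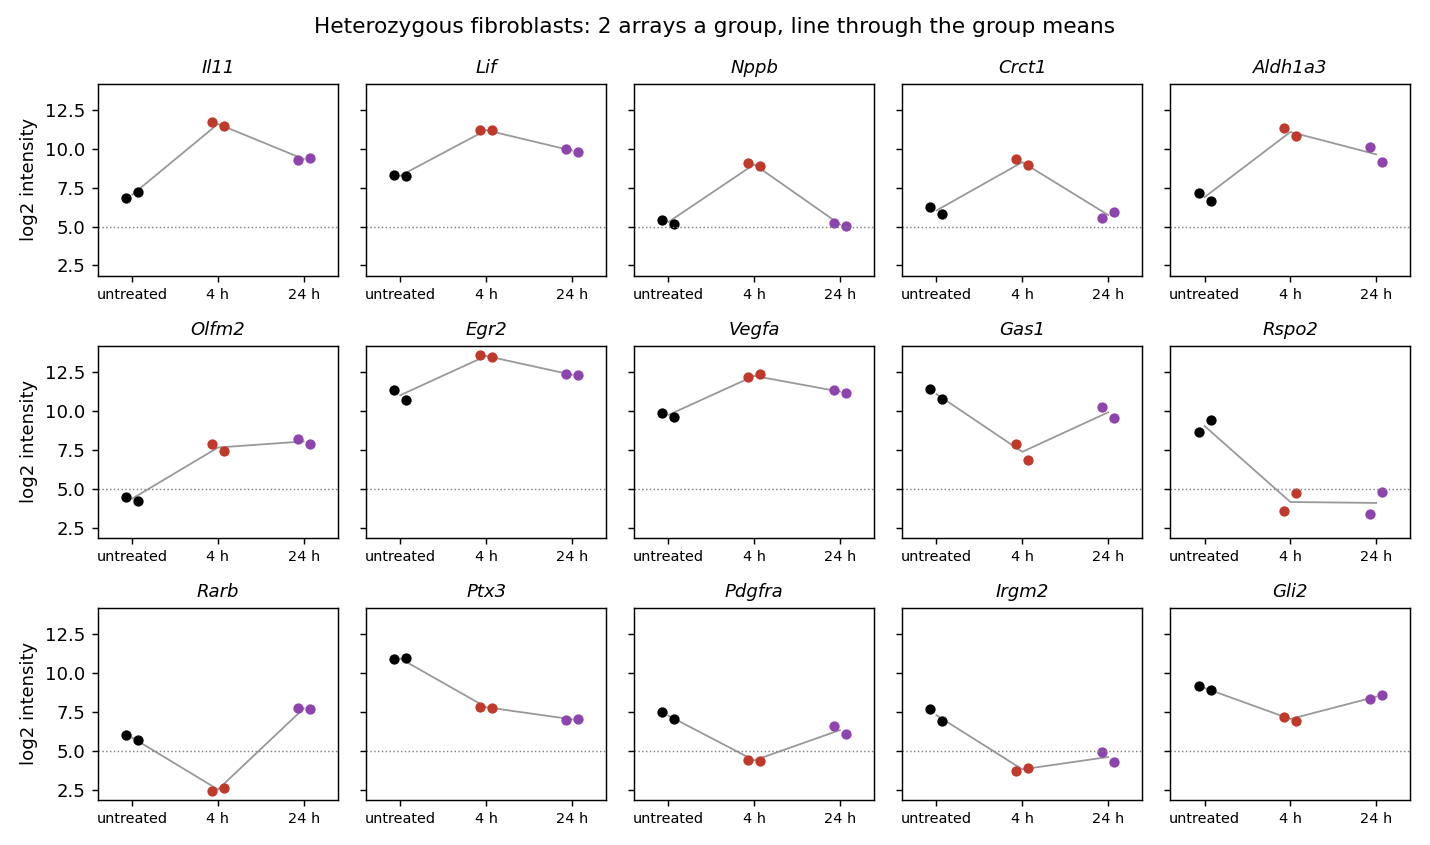
Log2 intensity of 15 genes in heterozygous cells that were untreated or had TGFb for 4 h or 24 h, with 2 arrays a group as points, a grey line through the group means and a dotted line at the dim level of 5. Nppb and Crct1 peak at 4 h, Olfm2 stays up, Rspo2 and Ptx3 stay low, and Rarb is low at 4 h and high at 24 h.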

How the data were processed

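RNA of the 4 heterozygous arrays and of the other 14 was hybridized to Affymetrix mouse arrays after a standard single amplification of total RNA, per the labels' protocols. The authors deposited intensity values on a linear scale from GCRMA, which corrects background, normalizes and summarizes the probes, per the submitters' processing notes. The GCRMA version is not given in the sources used here, nor is any scan date or batch. The intensities were converted to log2 values with no further normalization. Of 45101 probe sets 64 were controls, 34945 carried a single gene symbol, 932 several and 9160 none, and 34741 matched a RefSeq gene table. A probe set was kept with log2 of at least 5 on at least 2 of 18 arrays, and the brightest probe set stood for its gene. Between 39.76 and 40.25% of probe sets lay above log2 5 on the 4 arrays. With a group's arrays both under that level, the fold is a bound from it to the other group's mean.

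limma 3.58.1 in R 4.3.3 fitted a mean for each of 9 groups to all 18 arrays (9 residual degrees of freedom), with an intensity trend in eBayes, two-sided tests and Benjamini-Hochberg adjustment over 10078 genes. Named genes are the 20 largest measured rises and falls, the 10 largest bounded ones each way, up to 5 called members of each of 32 lists (901 genes, 695 measured), 12 key genes (11 measured) and the 5 genes with the smallest p of each difference between genotypes. For the rises, falls and list members so chosen, the 2 TGFb arrays had to lie both above or both below the 2 untreated arrays. Further list members are named after their values were seen. Members, lists, motifs and the rule were chosen with earlier results of these data known. Alternatives changed the filter, the probe sets used, the normalization, the scale, the arrays fitted, their weights, the trend and the replicate block, or left out an array. With 1 array left in a group, it is assumed to vary like the other groups. In data simulated for this comparison the fit recovered 47.8% of 1.5-fold, 73.1% of 2-fold and 93.9% of 4-fold changes, with 7 false calls among 10078 genes. Those data gave every array of a gene the same spread and changed 67, 67 and 66 genes at these folds. In the real comparison 28.8% of genes were called, so the shares may not carry over. The number of arrays limits the precision.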

Additional observations from a re-analysis of the deposited data

How the results depend on the processing

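The count of 2904 called genes was 2389 with no filter, 2510 without probe sets named _x_at, _s_at or _a_at, 2640 with equal array medians, 3023 with quantile normalization, 3887 with array weights and 4599 on the 12 mutant arrays alone. Without 1 of the 4 arrays it was 1554 to 2082. Higher genes made up 54.34% of calls, and 48.7 to 57.39% over the alternatives. The difference from the wt response passed for 4 genes with no filter and 0 to 47 with 1 array left out. The difference from the homozygous response passed for 3 genes with no filter. With the replicate block over all groups 2855 genes were called and 3034 with the block within genotype, and the block left both differences between genotypes at 0. Deviations of same-numbered arrays correlated at 0.376 to 0.453 among the heterozygous groups (0.45 for untreated and TGFb 4 h) and at 0.544 to 0.61 among the homozygous groups. With 2 numbers and no label that ties them, this is a hint from the data and does not establish pairs. For untreated and TGFb 4 h wt arrays the correlation was -0.492, and a block with the untreated wt numbers crossed, added after seeing the data, gave 0 genes. Of 182 called named genes 123 kept their call in every alternative, 59 lost it in at least 1, and Tgfbr1 alone changed sign (-0.038 as the mean of its probe sets). The cause of these shifts was not tested. Dim signals limit what can be measured: 51 called genes had a single dim array in a group.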
